A study of Mus musculus with 4 samples.

Results

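The p53 pathway and its ARF input were examined at the RNA level in the stomach, through 10 genes fixed by name out of the 46095 gene symbols counted. These are *Trp53* itself, its regulators *Mdm2* and *Cdkn2a*, and the p53 targets *Cdkn1a*, *Ccng1*, *Bbc3*, *Pmaip1*, *Trp53inp1*, *Gdf15* and *Sesn2*. All 10 symbols had a row. Bulk RNA from the stomach of C57BL/6 mice at 12 weeks of age was compared between 2 samples from WT mice and 2 from Atp4b-cre;MycOE mice, which the labels call MYC-KI and which are named *c-Myc* transgenic mice here. In the transgenic mice Cre recombinase is driven by the *Atp4b* promoter, which is active in the parietal cell lineage, and it switches on a floxed human *c-Myc* transgene, of which these mice carry 1 copy. The controls, labelled wild type, were littermates with 2 floxed copies (*Myc* fl/fl), so every animal carried the transgene cassette.

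p53 is a transcription factor that is made continuously and kept scarce by the ubiquitin ligase Mdm2, which is itself a p53 target and closes a feedback loop. Strong MYC or E2F activity is known to raise ARF, a nucleolar protein made from the *Cdkn2a* locus, and ARF binds Mdm2 so that p53 protein accumulates. Accumulated p53 can arrest the cell cycle, chiefly through *Cdkn1a*, or promote apoptosis through BH3-only genes such as *Bbc3* (PUMA) and *Pmaip1* (NOXA). Since p53 is mostly controlled as a protein, the RNA of its targets is the usual readout of its activity in expression data.

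The row order of the table had to be settled before any value was read. The gene names were deposited in an order that ignores case, whereas the counts of the 2 transgenic columns follow the names sorted by character code, with capitals before lower case. The transgenic counts were therefore assigned in row order to the names in character-code order, and the WT columns were left as they were. Pearson's r of mean log2(count + 1) across all gene rows, which are not independent replicates, was then 0.985 between the genotypes against 0.524 as deposited. None of the 10 genes stands at the same row in both orders. Over the 61 rows around each of them, r between the genotypes was 0.952 to 0.986 after re-sorting and at most 0.248 as deposited. No other shift of up to 20 rows gave an r above 0.538 around any of them, so each gene's transgenic counts were in register with its neighbours. As deposited, the *Trp53* row holds the transgenic counts of *Ubxn6*, the *Cdkn2a* row those of *Cdkl3*, and the *Mdm2* row those of *Mdm4-ps*, which has no reads.

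Each sample had 30260305 to 41463647 counts. A count of 0 in a WT sample allows up to 3 counts, which is 0.0894 and 0.108 normalized CPM (counts per 1000000 of the TMM-scaled library), and such limits cover counting error only. WT replicate 2 had 17846 *Xist* counts and 5 of the Y-linked gene *Ddx3y*, while the other 3 samples had 85 to 201 and 1861 to 2623, so 1 WT sample differs from the rest in sex. The mouse *Myc* row had 1062 and 759 counts in WT against 735 and 1091 in transgenic mice. These raw counts overlapped, but relative to the TMM-scaled library sizes both transgenic samples lay below both WT samples. The transgene is human, and how many of its reads were counted in the mouse row was not tested, so this row does not check the labels. Parietal cell markers were called lower for 5 of 5 genes, with a summed level of 10455 and 10608 CPM in WT and 183 and 246 CPM in transgenic mice. The chief cell markers (3 of 3) and surface mucous cell markers (4 of 4) were called lower as well. In bulk RNA from stomach tissue, fewer cells of a type and less RNA per cell cannot be told apart, and this holds for every change given here.

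Genotypes were compared by edgeR (quasi-likelihood F test) across the 17643 genes left by its filter on low counts. A gene was called when its Benjamini-Hochberg adjusted p was under 0.05 and its fold change above 1.5 in either direction. All 10 p53 pathway genes passed the filter, *Cdkn2a* only through its counts in the transgenic samples. *Trp53* and *Bbc3* were called higher in *c-Myc* transgenic mice, 2 of the other 9 genes, against a background of 5.65% of all tested genes called higher. *Cdkn2a* was past both thresholds as well, but having entered the test through the genotype where it is high it is described apart and not counted against the background. None of the 10 was called lower (background 5.08%), by edgeR or by DESeq2, and 0 were lower at an unadjusted p under 0.05. The remaining 7 genes, among them *Mdm2* and *Cdkn1a*, were not called. For the lists given further on, the background is 17.7% higher and 16.4% lower at an unadjusted p under 0.05, and 8.47% called higher and 9.67% called lower by DESeq2. The median log2 fold change (log2FC, transgenic over WT) of the 9 genes was 0.043, beside 0.012 for all tested genes. Both transgenic samples lay above both WT samples for 3 of the 9 genes (background 33.3%) and below them for 2 (background 31.5%), so 5 of 9 did not overlap, beside a background of 64.9%. Every call named here was lost without WT replicate 1 or WT replicate 2, since edgeR then called 0 of all genes, with a lowest adjusted p of 0.196 and 0.232, although 3554 and 3410 genes had an unadjusted p under 0.05 and *Trp53*, *Cdkn2a* and *Bbc3* were among them. Library-size scaling without TMM moved the median of all tested genes to 0.23, a shift that all genes share.

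**Figure D1:**
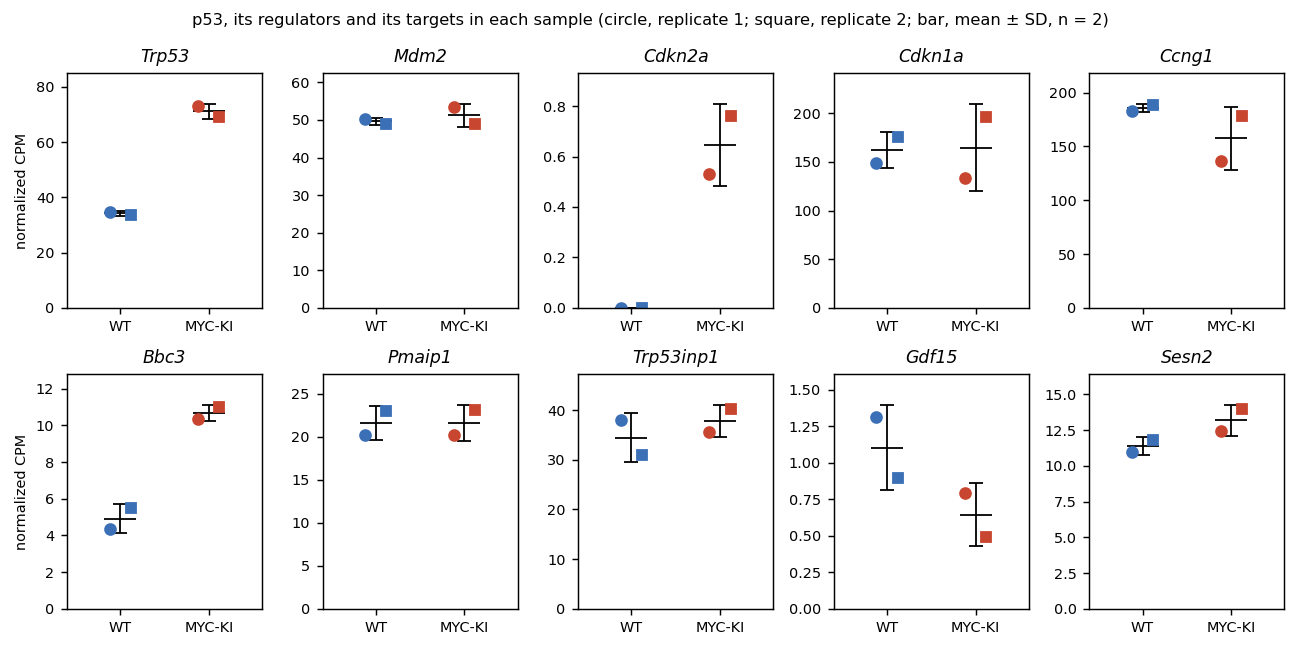
Normalized CPM (vertical axis, from 0) of each p53 pathway gene in the 2 WT (blue) and 2 *c-Myc* transgenic samples (red, labelled MYC-KI), with circles for replicate 1, squares for replicate 2 and bars for the mean and SD (n = 2). *Trp53* and *Bbc3* sit about 2-fold higher in both transgenic samples and *Cdkn2a* is at 0 in both WT samples, while *Mdm2* and *Pmaip1* overlap between the genotypes.

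*Cdkn2a* produces INK4a, an inhibitor of the cyclin D kinases, and ARF, the Mdm2 inhibitor, from alternative first exons read in different frames. The locus is on the minus strand of chromosome 4 (GRCm38 4, 89274471 to 89294653), and GENCODE M21 lists 2 transcripts whose starts are 12461 bases apart. The upstream first exon gives ARF and the downstream one INK4a. Exons 2 and 3 are common to them, and 575 of 1172 exonic bases (49.1%) lie in both transcripts, so counts per gene cannot be split between ARF and INK4a. The sequences before the 2 starts are shown because all *Cdkn2a* reads came from 1 genotype and the counts do not tell from which start. They are taken from the RefSeq promoter table (GRCm38.p6), minus strand, 5′ to 3′, from chr4:89294654-89294869 for ARF and chr4:89282193-89282442 for INK4a, without bases that an annotated exon covers.
Cdkn2a, ARF start: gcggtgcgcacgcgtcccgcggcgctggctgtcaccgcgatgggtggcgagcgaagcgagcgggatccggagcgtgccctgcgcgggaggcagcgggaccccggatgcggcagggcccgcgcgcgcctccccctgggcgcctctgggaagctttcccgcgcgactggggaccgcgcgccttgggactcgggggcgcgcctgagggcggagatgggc
Cdkn2a, INK4a start: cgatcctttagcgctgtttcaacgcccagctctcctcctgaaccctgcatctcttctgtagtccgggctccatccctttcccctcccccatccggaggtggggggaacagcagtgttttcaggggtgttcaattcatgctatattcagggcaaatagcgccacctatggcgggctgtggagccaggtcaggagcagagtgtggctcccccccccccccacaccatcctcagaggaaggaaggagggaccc

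*Cdkn2a* had 0 counts in both WT samples, and 18 and 34 counts in the transgenic samples. The transgenic samples thus stood at 0.531 and 0.761 normalized CPM. Every *Cdkn2a* read therefore came from the transgenic samples, although the gene was the least abundant of the 10 by CPM in WT and close to *Gdf15* in transgenic mice. With 3 counts per WT library as the floor, *Cdkn2a* was at least 6.56-fold higher in transgenic mice, and at least 5.39-fold and 7.73-fold higher in transgenic replicates 1 and 2 taken alone. Its adjusted p by edgeR was 0.0421, and 0.0182 with no filter on low counts, while it could not be fitted where every sample had to hold 10 counts. Since it passed the filter through its transgenic counts alone, this p is a description. It was above the threshold without any 1 of the 4 samples, at 0.0913 without transgenic replicate 1, 0.106 without replicate 2, 0.205 without WT replicate 1 and 0.238 without WT replicate 2.

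The neighbouring gene *Cdkn2b*, which encodes the related inhibitor INK4b, lies 11645 bases beyond the ARF end of the *Cdkn2a* gene on the same strand (GRCm38 4, 89306299 to 89311039). It had 23.9 and 30.4 CPM in WT, and 15.5 and 14.1 CPM in transgenic mice. *Cdkn2b* was thus lower where *Cdkn2a* was higher, with a log2FC of -0.88 (SE 0.17, adjusted p = 0.0471 by edgeR). It was not called without any 1 of the samples (adjusted p 0.0690 to 0.253), nor under library-size scaling (log2FC -0.65, adjusted p = 0.0608). Of the 6 cyclin-dependent kinase inhibitors listed beside *Cdkn1a* and *Cdkn2a*, 0 were called higher and *Cdkn2b* alone was called lower by edgeR (16.7%, background 5.08%), while 2 were lower by DESeq2 and at an unadjusted p under 0.05 and 0 were higher. The other gene that DESeq2 called was *Cdkn1c* (KIP2), at 23.7 and 29.9 CPM in WT and 15.5 and 16.1 CPM in transgenic mice, which missed the threshold by edgeR (log2FC -0.76, adjusted p = 0.0539) unless no filter was used (0.0307). *Cdkn1b* (KIP1), an inhibitor of the cyclin E and A kinases, had log2FC -0.05 (95% interval -0.27 to 0.16, and 0.17 under library-size scaling), and *Cdkn2c* (INK4c) had -0.23 (-0.57 to 0.10).

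Genes that control *Cdkn2a* or that meet ARF in the nucleolus were read from a list of 18, all tested. Of these, 6 were called higher (33.3%, background 5.65%) and 0 lower by edgeR. DESeq2 called 7 higher and 0 lower, and at an unadjusted p under 0.05 10 were higher (background 17.7%) and 1 lower (background 16.4%). Nucleolar proteins led the list. *Npm1* (nucleophosmin), which holds ARF in the nucleolus, had 140.7 and 150.5 CPM in WT, and 428 and 427 CPM in transgenic mice, a log2FC of 1.55 (SE 0.09, adjusted p = 0.0102). *Ncl* (nucleolin) rose by a log2FC of 1.28 (SE 0.11, adjusted p = 0.0180) and *Gnl3* (nucleostemin), a nucleolar GTPase that can bind Mdm2, by 1.31 (SE 0.16, adjusted p = 0.0235). *Rpl23* and *Rpl11*, ribosomal proteins that bind Mdm2 when ribosome assembly is disturbed, rose by 0.64 and 0.63 (adjusted p = 0.0267 and 0.0275). *Rpl5*, a ribosomal protein gene of the same list, had a log2FC of 0.40 and was not called (adjusted p = 0.137 by edgeR). *Npm1* and the ribosomal protein genes have many near-identical pseudogene copies, and reads may be divided among them. Among the repressors of *Cdkn2a*, the Polycomb gene *Cbx7* was called higher (log2FC 0.65, SE 0.11, adjusted p = 0.0366), and *Bmi1* and *Ezh2* were not called. Without transgenic replicate 1 *Cbx7* lost its call (adjusted p = 0.0687), as did *Rpl23* without replicate 2, where its value of 0.58 fell under the fold threshold. *E2f1*, an activator of the ARF promoter, had 6.56 and 6.06 CPM in WT and 11.2 and 10.3 CPM in transgenic mice, a log2FC of 0.77 that missed the threshold (adjusted p = 0.0624 by edgeR), and was called by DESeq2 (adjusted p = 0.0107) and under library-size scaling (0.0299).

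*Trp53* lies on chromosome 11 (GRCm38 11, 69580359 to 69591873, plus strand). It had 34.8 and 33.7 CPM in WT, and 73.1 and 69.2 CPM in *c-Myc* transgenic mice. The samples of a genotype lay within a few CPM of each other and those of the other genotype were about double. The log2FC was 1.06 (SE 0.08, 95% interval 0.84 to 1.28, adjusted p = 0.0168 by edgeR), a 2.08-fold rise from 34.2 ± 0.789 to 71.2 ± 2.72 CPM (SD, n = 2). The call held without transgenic replicate 1 (adjusted p = 0.0205) or replicate 2 (0.0154). It was lost without WT replicate 1 (log2FC 1.08, adjusted p = 0.196) or WT replicate 2 (1.03, adjusted p = 0.232). The 3 samples left without WT replicate 2 are of one sex by *Xist* and *Ddx3y*. The processed pseudogene *Trp53-ps* had 2 counts in each WT sample and 7 and 19 in transgenic mice, too few to change the *Trp53* row.

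The 250 bases before the *Trp53* start (RefSeq, GRCm38.p6, chr11:69580109-69580358, plus strand) are shown because the *Trp53* RNA itself rose. Capitals mark the 1 match to the p53 half-site consensus, searched in both strands by its palindromic pattern. An E-box, CACGTG, the palindromic motif bound by MYC with MAX, begins 11 bases into the transcript, and it is shown in capitals with its flanks (chr11:69580357-69580386).
Trp53, upstream: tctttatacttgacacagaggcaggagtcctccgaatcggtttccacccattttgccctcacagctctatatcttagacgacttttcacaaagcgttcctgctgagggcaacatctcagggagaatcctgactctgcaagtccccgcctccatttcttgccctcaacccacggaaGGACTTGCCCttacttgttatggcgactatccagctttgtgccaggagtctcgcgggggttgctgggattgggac
Trp53, E-box: actttcccctccCACGTGctcaccctggct
The E-box was found in 7.15% and the p53 half-site in 8.36% of the 32851 windows of 300 bases in the table. A match describes these letters and not binding in these samples.

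*Mdm2*, the ubiquitin ligase that removes p53 and a p53 target in its own right, was close in level between the genotypes. It had 50.4 and 49.0 CPM in WT, and 53.4 and 49.0 CPM in transgenic mice. The genotypes overlapped, with a log2FC of 0.04 (95% interval -0.19 to 0.28, adjusted p = 0.767 by edgeR), an interval within 1.5-fold in either direction. *Mdm4* (MDMX), the partner that blocks p53 transactivation, had 65.5 and 66.0 CPM in WT and 87.9 and 80.9 CPM in transgenic mice. Its log2FC of 0.36 missed the threshold (SE 0.08, adjusted p = 0.0597).

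Of 26 further regulators of p53, all tested, 0 were called higher and 1 was called lower by edgeR, while 7 were higher (background 17.7%) and 1 lower (background 16.4%) at an unadjusted p under 0.05. DESeq2 called 2 higher (background 8.47%) and 1 lower (background 9.67%). *Hipk2*, a kinase that phosphorylates p53 and favours its apoptotic targets, had 289 and 337 CPM in WT, and 130.4 and 149.0 CPM in transgenic mice. Both transgenic samples were thus far below both WT samples, with a log2FC of -1.16 (SE 0.13, adjusted p = 0.0212). The most abundant ubiquitin enzymes were not called, with -0.03 for *Huwe1* (95% interval -0.27 to 0.22, and 0.20 under library-size scaling) and 0.15 for *Usp7* (-0.08 to 0.38). The acetyltransferase gene *Ep300* had -0.14 (-0.34 to 0.06, and 0.084 under library-size scaling).

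**Figure D2:**
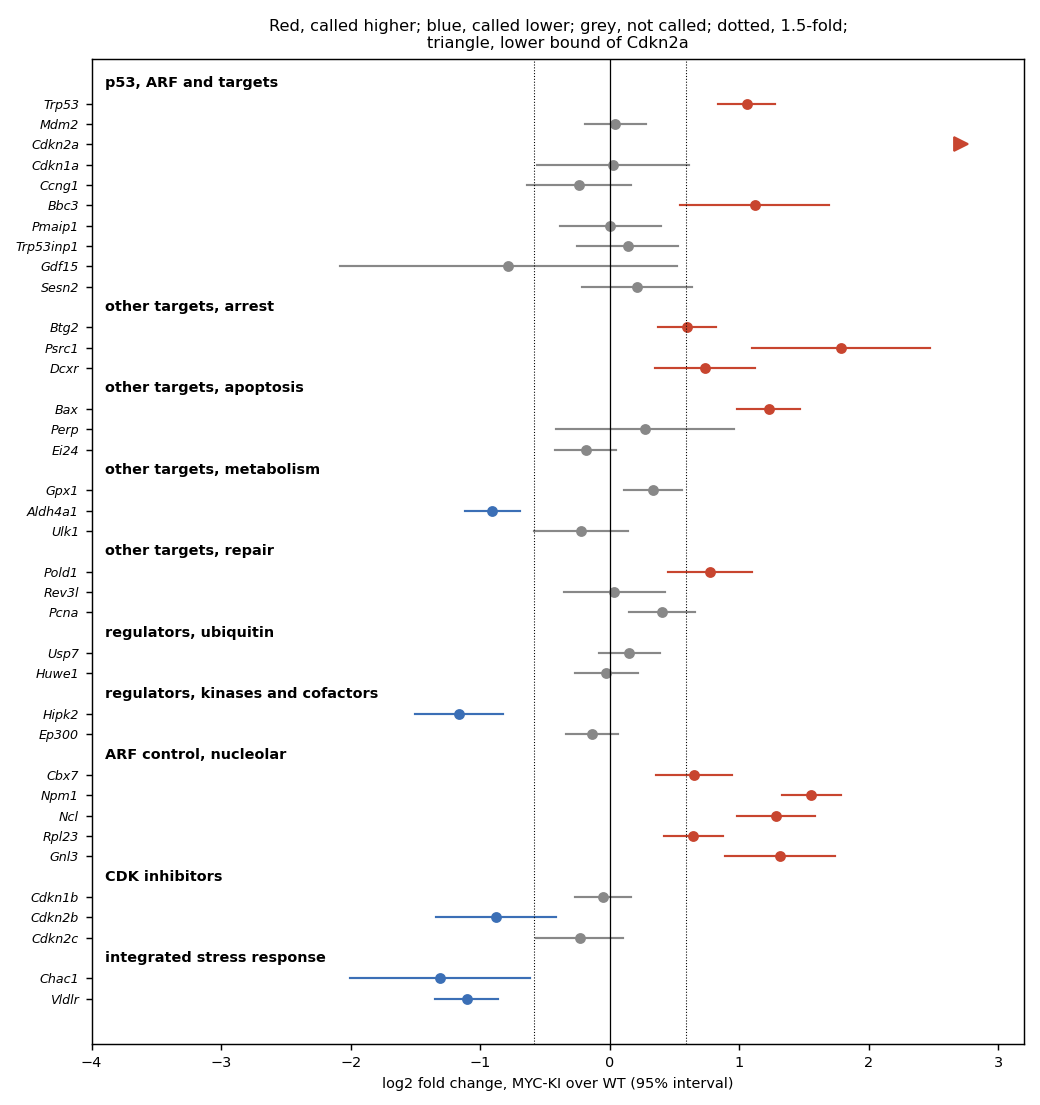
Log2FC of *c-Myc* transgenic over WT samples (horizontal axis) with its 95% interval for the p53 pathway genes and the genes named from each list, coloured red where called higher, blue where called lower and grey where not called. The values of *Trp53*, *Bbc3*, *Bax* and the nucleolar genes lie to the right of the dotted 1.5-fold line, although the intervals of *Bbc3* and *Rpl23* cross it. The intervals of *Mdm2* and *Pmaip1* lie within the 1.5-fold lines, and the triangle is the lower bound of *Cdkn2a*.

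*Cdkn1a*, the p21 inhibitor through which p53 arrests the cell cycle, was among the most abundant of the 10 genes. It had 149.2 and 175.1 CPM in WT, and 133.0 and 196.6 CPM in *c-Myc* transgenic mice. The transgenic samples lay on either side of the WT samples, and the log2FC was 0.02 (95% interval -0.56 to 0.61, adjusted p = 0.953 by edgeR). The value turned to -0.29 without transgenic replicate 2 and to -0.09 without WT replicate 1, so its sign depended on single samples. *Ccng1* (cyclin G1), a feedback target that acts with a phosphatase on Mdm2, had 182.7 and 188.4 CPM in WT, and 136.8 and 178.1 CPM in transgenic mice. Both transgenic samples were lower, and the log2FC of -0.24 was not called (95% interval -0.64 to 0.16, adjusted p = 0.334). It was -0.44 without transgenic replicate 2 and -0.058 without transgenic replicate 1.

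The RefSeq window upstream of the first *Cdkn1a* start (GRCm38.p6, chr17:29090729-29090975, plus strand) is shown because it holds a pair of p53 half-sites, in capitals, 12 bases apart, at 73 and 51 bases before the start. It is the single window among the 13 of these genes with such a pair, against 0.0731% of all windows, and *Cdkn1a* was not called.
Cdkn1a, upstream: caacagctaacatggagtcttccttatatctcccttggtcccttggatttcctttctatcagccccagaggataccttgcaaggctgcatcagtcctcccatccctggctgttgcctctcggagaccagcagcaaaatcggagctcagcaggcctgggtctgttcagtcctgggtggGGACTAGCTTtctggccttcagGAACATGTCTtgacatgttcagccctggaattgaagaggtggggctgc
Windows were found for 8 of the 10 genes, and half-sites were present for *Trp53*, *Mdm2*, *Ccng1* and *Cdkn1a*. *Pmaip1* and *Trp53inp1* had no window that could be used.

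Of 14 other p53 targets filed under arrest and differentiation, 13 were tested, 3 were called higher (23.1%, background 5.65%) and 0 lower (background 5.08%) by edgeR. At an unadjusted p under 0.05, 5 were higher (background 17.7%) and 1 lower (background 16.4%), and DESeq2 called 4 higher (background 8.47%) and 1 lower (background 9.67%). *Btg2*, an antiproliferative gene, had 132.9 and 143.2 CPM in WT, and 207 and 209.7 CPM in transgenic mice. Its log2FC of 0.59 (SE 0.08, adjusted p = 0.0287) stood just above the fold threshold, and it was under it by DESeq2 (0.58), with DESeq2's size factors in edgeR (0.58), without WT replicate 1 (0.54) and without transgenic replicate 2 (0.58). *Psrc1* had 1.67 and 1.72 CPM in WT and 6.13 and 5.57 CPM in transgenic mice, a log2FC of 1.79 (SE 0.26, adjusted p = 0.0298). *Psrc1* encodes a protein of the mitotic spindle, and *Dcxr*, the other gene called (log2FC 0.73, adjusted p = 0.0471), encodes a carbonyl reductase. Without transgenic replicate 1 the call was lost for *Psrc1* (adjusted p = 0.0532) and *Dcxr* (0.0894). All 4 markers of dividing cells were higher in both transgenic samples (background 33.3%) and 1 of them, *Ccnb1*, was called (background 5.65%), with a summed level of 260.3 and 251.6 CPM in WT and 396 and 339.7 CPM in transgenic mice. Their part in the rise of *Psrc1* was not tested.

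The transgenic samples differed from each other for some p53 targets, of which *Sfn*, *Phlda3* and *Plk3* were chosen after their values were seen. *Sfn* (14-3-3 sigma), a p53 target that holds cells before mitosis, had 177.6 and 148.4 CPM in WT, and 193.0 and 289.8 CPM in transgenic mice. *Phlda3*, a p53-induced inhibitor of Akt at the membrane, had 29.98 and 33.0 CPM in WT, and 21.7 and 49.8 CPM in transgenic mice. In both, transgenic replicate 2 was the highest of the 4 samples, as it was for *Cdkn1a*, and neither was called (adjusted p = 0.170 and 0.793). Without transgenic replicate 1 *Sfn* was called higher (log2FC 0.83, adjusted p = 0.0429), and without replicate 2 its log2FC was 0.24 (adjusted p = 0.304). The 4 squamous keratins of the forestomach summed to 1221 and 729 CPM in WT, and to 517 and 2410 CPM in transgenic mice, also highest in transgenic replicate 2. None of the 4 was called by edgeR or DESeq2, 0 had an unadjusted p under 0.05, and their part in the spread of these targets was not tested. *Plk3*, a polo-like kinase gene among the listed targets, spread as widely, at 13.5 and 28.5 CPM in the transgenic samples. The 5 smooth muscle and fibroblast markers summed to 5697 and 3927 CPM in WT and to 1810 and 3866 CPM in transgenic mice, with 2 of 5 called lower, and the 5 leukocyte markers had 1 called lower. Of 4 pancreatic acinar markers, only *Cela1* had enough counts to be tested, and it was called lower. *Cpa1* had 0 counts in every sample, *Ctrb1* had 12 and 1 in WT against 8 and 4 in transgenic mice, and *Pnlip* had 1 and 0 against 18 and 7.

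*Bbc3* (PUMA), a BH3-only protein that frees the mitochondrial death proteins, lies on chromosome 7 (GRCm38 7, 16308393 to 16318205, plus strand). It had 4.35 and 5.48 CPM in WT, and 10.3 and 11.0 CPM in *c-Myc* transgenic mice. Both transgenic samples were about double the WT samples. *Bbc3* rose 2.17-fold, from 4.92 ± 0.802 to 10.7 ± 0.455 CPM (SD, n = 2), with a log2FC of 1.12 (SE 0.21, 95% interval 0.54 to 1.69, adjusted p = 0.0452 by edgeR). The call was lost without any 1 of the samples, with log2FC values of 1.08 without transgenic replicate 2 (adjusted p = 0.0705), 1.16 without transgenic replicate 1 (0.0720), 0.96 without WT replicate 1 (0.230) and 1.29 without WT replicate 2 (0.238).

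*Pmaip1* (NOXA), the other BH3-only target, had overlapping levels in the genotypes. It had 20.2 and 22.9 CPM in WT, and 20.1 and 23.1 CPM in transgenic mice. Its log2FC was 0.0039 (95% interval -0.38 to 0.39, adjusted p = 0.987). *Trp53inp1*, a stress-induced protein that promotes p53 phosphorylation and autophagy, had 37.9 and 30.9 CPM in WT, and 35.6 and 40.1 CPM in transgenic mice. The genotypes overlapped (log2FC 0.14, 95% interval -0.25 to 0.53, adjusted p = 0.558).

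Of 16 other apoptotic targets, all tested, 1 was called higher (6.25%, background 5.65%) and 0 lower by edgeR, while 7 were higher (background 17.7%) and 1 lower (background 16.4%) at an unadjusted p under 0.05. DESeq2 called 5 higher (background 8.47%) and 0 lower. The gene called was *Bax*, which opens the outer mitochondrial membrane and is the effector that PUMA sets free. *Bax* had 22.0 and 22.9 CPM in WT, and 53.3 and 51.5 CPM in transgenic mice. Its rise, a log2FC of 1.22 (SE 0.09, 95% interval 0.98 to 1.47, adjusted p = 0.0157), stood beside 1.12 for *Bbc3* and had the smaller SE. The call of *Bax* held without either transgenic sample and was lost without WT replicate 1 (adjusted p = 0.196) or WT replicate 2 (adjusted p = 0.232). *Eda2r*, a death receptor of the TNF receptor family named here for its values, had 2.09 and 1.33 CPM in WT, and 5.01 and 6.81 CPM in transgenic mice, a log2FC of 1.79 just outside the threshold (SE 0.37, adjusted p = 0.0503). *Eda2r* was called by DESeq2 (adjusted p = 0.00062), under library-size scaling (0.0311), with no filter (0.0188) and with at least 10 counts in every sample (0.0434). *Perp*, a desmosomal protein and the most abundant gene of this list, had a log2FC of 0.27 (95% interval -0.42 to 0.96), and *Ei24* had -0.19 (-0.42 to 0.05, and 0.038 under library-size scaling).

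E-boxes lay near the starts of *Bbc3* and *Bax* as of *Trp53*, and they are shown with their flanks. Outside the 10 genes only *Bax* was searched, chosen because it was called, and the other genes called higher were not, so no link of E-boxes with a rise was tested. That of *Bbc3* is 64 bases before one of its 3 RefSeq starts (chr7:16310355-16310384, plus strand), and that of *Bax* is 9 bases before its start (chr7:45466890-45466919, minus strand), with another 36 bases into the transcript. *Gdf15*, which was not called, also has one, 83 bases before one of its 2 starts (chr8:70632161-70632190, minus strand).
Bbc3, E-box: gcggggcgggcgCACGTGgcggcgtcgagg
Bax, E-box: agcgatgatgatCACGTGactagtcctgcg
Gdf15, E-box: cacagggcagggCACGTGtgagcatccagt
Among the 10 genes, E-boxes were found in 3 of 13 windows, and both *Cdkn2a* windows held neither an E-box nor a p53 half-site.

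**Figure D3:**
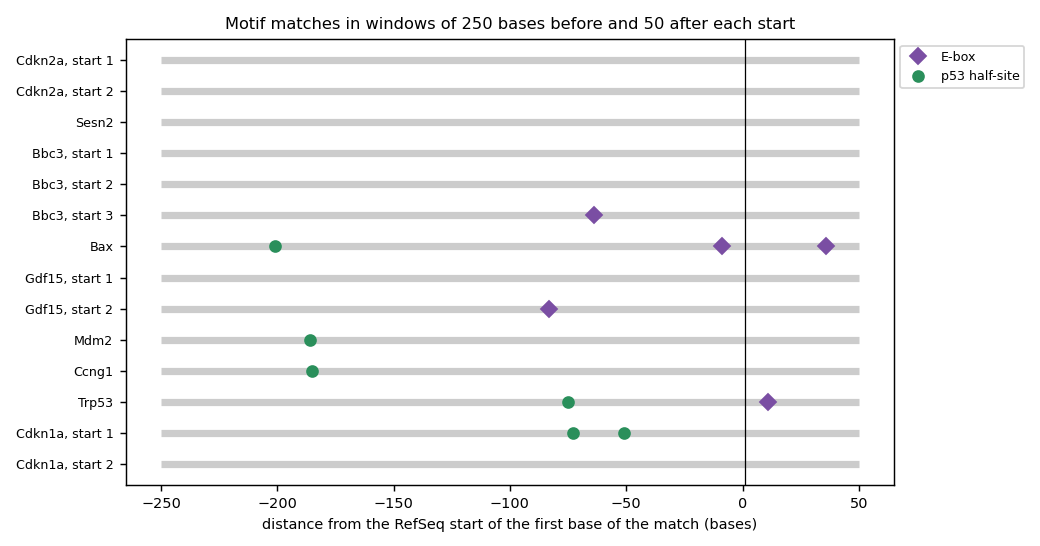
Matches to the E-box (diamonds) and the p53 half-site (circles) in each RefSeq window searched for the p53 pathway genes and *Bax*, placed by the distance in bases from the start (horizontal axis). Half-sites stand before *Trp53*, *Mdm2*, *Ccng1*, *Cdkn1a* and *Bax*, E-boxes near *Trp53*, *Bbc3*, *Bax* and *Gdf15*, and the 2 *Cdkn2a* windows are empty.

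*Gdf15*, a secreted stress hormone induced by p53 and by the integrated stress response, had few reads. It had 44 and 25 counts in WT, and 27 and 22 counts in transgenic mice, or 1.31 and 0.896 CPM and 0.796 and 0.493 CPM. Both transgenic samples were lower, and with so few counts the log2FC of -0.78 had a 95% interval from -2.08 to 0.52 (adjusted p = 0.326 by edgeR). *Sesn2* (sestrin 2), an inhibitor of mTORC1 signalling with the same pair of inducers, had 11.0 and 11.8 CPM in WT, and 12.4 and 13.9 CPM in transgenic mice. Both transgenic samples were slightly higher, and the difference was not called (log2FC 0.21, 95% interval -0.21 to 0.63, adjusted p = 0.410).

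The integrated stress response, which is known to induce *Gdf15*, *Sesn2* and *Pmaip1* without p53, was read from 12 genes. None was called higher by edgeR or DESeq2, 0 were higher at an unadjusted p under 0.05, and 2 were called lower by each tool (16.7%, background 5.08% by edgeR), with 4 lower at an unadjusted p under 0.05 (background 16.4%). These were *Chac1*, a glutathione-degrading enzyme, at 8.73 and 9.18 CPM in WT and 3.01 and 4.19 CPM in transgenic mice (log2FC -1.31, SE 0.26, adjusted p = 0.0471), and the lipoprotein receptor gene *Vldlr* (-1.10, SE 0.09, adjusted p = 0.0175). The call of *Chac1* was lost without transgenic replicate 1 (adjusted p = 0.0712). *Atf4*, the transcription factor at the centre of the response, had 163.9 and 156.9 CPM in WT and 179.6 and 151.6 CPM in transgenic mice, with overlap.

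Targets in metabolism and redox control numbered 16, all tested, of which 0 were called higher and 1 lower by edgeR, with 4 in each direction at an unadjusted p under 0.05 (background 17.7% higher and 16.4% lower). Among the 4 lower was *Tmem150a*, which passed the filter only through its WT counts (14 and 12, against 0 and 2 in transgenic mice). DESeq2 called 2 higher and 1 lower. *Aldh4a1*, a mitochondrial enzyme of proline breakdown, had 64.5 and 66.8 CPM in WT, and 35.4 and 34.7 CPM in transgenic mice, a log2FC of -0.91 (SE 0.08, adjusted p = 0.0180). The abundant genes of this list were not called, with log2FC values of 0.33 for the peroxidase gene *Gpx1* (adjusted p = 0.0700) and -0.22 for the autophagy kinase gene *Ulk1* (adjusted p = 0.318, and 0.00032 under library-size scaling). Of 9 targets in DNA repair, *Pold1*, the catalytic subunit of a replicative polymerase, was called higher, at 15.5 and 14.4 CPM in WT and 25.4 and 25.7 CPM in transgenic mice (log2FC 0.77, SE 0.12, adjusted p = 0.0335), a call lost without transgenic replicate 1 (adjusted p = 0.0575). None of the 9 was called lower by edgeR, while 2 were higher and 2 lower at an unadjusted p under 0.05, and DESeq2 called 1 higher and 2 lower. *Pcna*, its sliding clamp, had 0.41 (adjusted p = 0.0631, and a call at 0.0226 under library-size scaling) and the translesion polymerase gene *Rev3l* 0.03 (adjusted p = 0.897), and neither was called.

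Over all 55 other p53 targets, 54 were tested, 5 were called higher (9.26%, background 5.65%) and 1 lower (1.85%, background 5.08%). Their median log2FC was 0.15 beside 0.012 for all tested genes, and 33 lay above 0 and 21 below. DESeq2 called 12 higher (background 8.47%) and 4 lower (background 9.67%), and at an unadjusted p under 0.05 18 were higher (background 17.7%) and 8 lower (background 16.4%). On the re-sorted table the number called higher by edgeR was 0 without either WT sample and 15 under library-size scaling, which called 12.9% of all tested genes higher. The 5 called higher were *Btg2*, *Psrc1*, *Dcxr*, *Bax* and *Pold1*, and the 1 called lower was *Aldh4a1*. The metabolism and redox targets had the lowest median of the target lists, -0.28, with both transgenic samples below WT for 10 of 16 (background 31.5%).

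**Figure D4:**
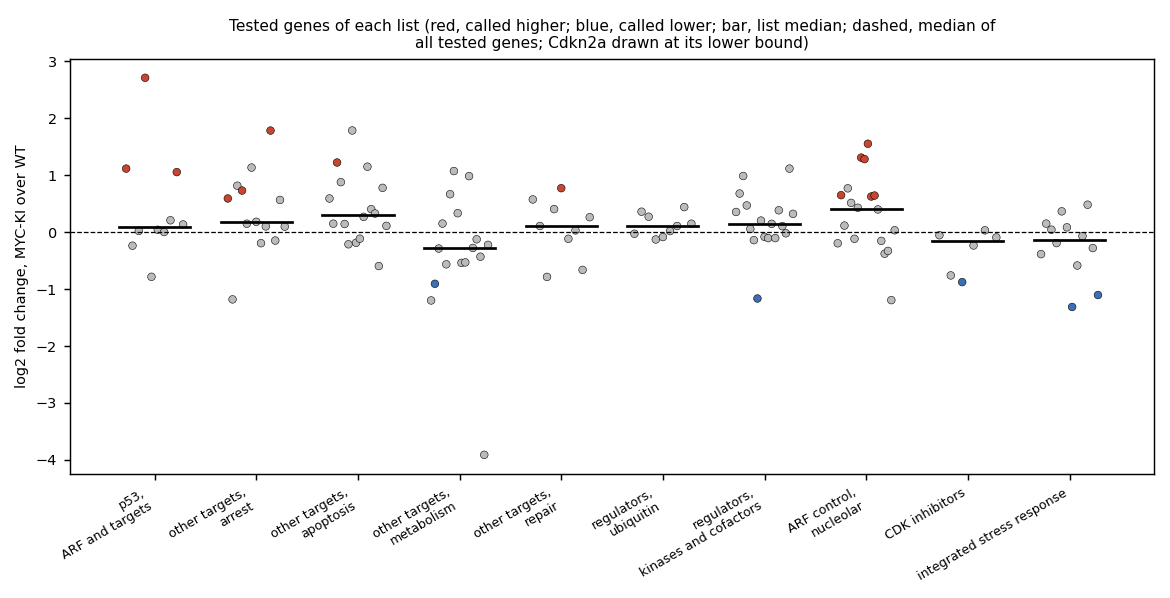
Log2FC of every tested gene (points) by list, with list medians as bars and the median of all tested genes (0.012) as the dashed line, red for genes called higher and blue for genes called lower. The list of ARF control and nucleolar genes holds 6 red points, while most genes of the other lists are grey. The p53 pathway genes show *Trp53*, *Bbc3* and *Cdkn2a* in red. *Cdkn2a* is drawn at its lower bound and described apart, but the bar of that list is the median of all 10 genes.

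Levels of the genes were compared with each other per kilobase of exons, using GENCODE M21 lengths, on the scale of CPM per kilobase. In WT mice *Ccng1* (52.8) and *Cdkn1a* (45.6) stood highest, followed by *Mdm2* (9.77), *Trp53* (8.46) and *Pmaip1* (7.89). *Trp53inp1* (5.32), *Sesn2* (3.28), *Bbc3* (2.32), *Gdf15* (0.596) and *Cdkn2a* (0) were lower. The WT samples of *Trp53* and *Pmaip1* overlapped, and those of the other neighbours in this order did not. In *c-Myc* transgenic mice *Cdkn1a* (46.4) and *Ccng1* (44.8) overlapped at the top, and *Trp53* (17.6) now stood above *Mdm2* (10.1) in both samples. *Bbc3* (5.02) stood above *Sesn2* (3.79), and *Cdkn2a* (0.551) above *Gdf15* (0.348), each the other way round in WT. The order of *Cdkn2a* and *Gdf15* rests on few counts, 18 and 34 against 27 and 22 in the transgenic samples. In transgenic replicate 1 they stood at 0.453 and 0.430. These orders rest on the annotated length, since which transcripts were made is not known.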

How the data were processed

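Total RNA from 2 stomach samples of WT and 2 of *c-Myc* transgenic mice was sequenced, and the authors deposited 1 table of raw read counts per gene symbol, not normalized, with 1 column per sample. Per the labels, reads were processed with HISAT2 on mm10, and the counting tool and annotation are not given in the sources used here. Columns were matched to samples by name. Each library held 30260305 to 41463647 counts, and the limits set by a count of 0 cover counting error only. Transgenic counts were re-assigned to the names in character-code order, and the deposited order was kept as an alternative.

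The genotypes were compared in R 4.3.3 by the quasi-likelihood F test of edgeR 4.0.16 on the counts of the 17643 genes kept by filterByExpr, with TMM scaling and Benjamini-Hochberg adjustment over these genes. The 1.5-fold threshold is that of the study, which used DESeq2. Standard errors are the absolute log2 fold change over the square root of F, and the 95% intervals use the degrees of freedom of that test. CPM values use the TMM-scaled library sizes. The labels number the replicates without saying that each is a separate mouse. The 2 WT samples differ in sex and so came from different mice. The p-values measure the spread between these samples, and that of the 2 transgenic samples may be technical.

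The alternatives were DESeq2 1.42.0, its size factors in edgeR, library size without TMM, the fold threshold dropped or set to an absolute log2 fold change of 1, the filter dropped or raised to 10 counts per sample, a block for the replicate number, each sample left out in turn and the deposited order. The fits were checked on simulated counts. The 10 genes and all lists were chosen with earlier results of these data known. Genes named from a list were those called, up to 5 per direction, and the 2 most abundant where fewer than 2 were called. *Eda2r*, *Mdm4*, *E2f1*, *Rpl11*, *Rpl5*, *Sfn*, *Phlda3*, *Plk3*, *Cdkn1c*, *Atf4*, *Bmi1*, *Ezh2* and *Tmem150a* were added after their values were seen, and markers were named beside results they bear on. Of the listed symbols, 3 were matched by an older name. Promoter sequences came from RefSeq (GRCm38.p6) and gene models from GENCODE M21 (GRCm38).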

Additional observations from a re-analysis of the deposited data

How the results depend on the processing

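Among the alternatives, only the deposited row order turned the direction of a call, and the call of *Trp53* held in all but 3 of the others. edgeR called 996 genes higher and 896 lower. The number lower was 739 under library-size scaling and 649 with a threshold of 1 on the log2 scale. DESeq2 called 1497 and 1727, library-size scaling called 2272 higher, a threshold of 1 on the log2 scale left 464 higher, leaving out 1 sample gave 0 to 1064 higher and 0 to 1406 lower, and the deposited order gave 9422 and 9158. Of the 10 p53 pathway genes, 3 were past both thresholds with *Cdkn2a* included, 2 with the raised filter, 0 to 1 with 1 sample left out, and the deposited order called 8 lower. The number of other p53 targets called higher (5) became 12 by DESeq2, 15 by library size, 10 with no filter, 8 with the raised filter, 2 with the threshold of 1, 0 to 4 with 1 sample left out and 20 as deposited. The number called lower (1) became 4 by DESeq2, 3 with no filter, 2 with the raised filter, 0 with the threshold of 1, 0 to 3 with 1 sample left out and 21 as deposited. The 6 ARF control and nucleolar genes called higher became 10 by library size, 3 with the threshold of 1 and 0 to 5 with 1 sample left out.

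Samples with the same replicate number share only a number (r of their deviations 0.067), and with the replicate block edgeR called 27 genes higher and 87 lower, 0 of the 10 p53 pathway genes (adjusted p = 0.0541 for *Trp53*, 0.0897 for *Bbc3* and 0.113 for *Cdkn2a*), 0 other targets in either direction and 1 ARF or nucleolar gene, *Npm1*. Signs of uncalled log2 fold changes turned under library size for *Ei24* (0.038), *Ulk1* (0.00032), *Huwe1* (0.20), *Ep300* (0.084) and *Cdkn1b* (0.17), and for *Pmaip1* by DESeq2 (-0.0054) or its size factors (-0.010). Leaving out 1 sample moved *Cdkn1a* from -0.29 to 0.28, *Mdm2* from -0.019 to 0.10, *Pmaip1* from -0.097 to 0.10, *Trp53inp1* from -0.0055 to 0.29, *Perp* from -0.12 to 0.58, *Rev3l* from -0.11 to 0.19, *Huwe1* from -0.083 to 0.028, *Atf4* from -0.081 to 0.16, *Plk3* from -0.53 to 0.54 and *Phlda3* from -0.54 to 0.66. As deposited, where rows hold another gene's transgenic counts, they were -13.73 for *Mdm2*, -3.40 for *Cdkn1a*, -2.92 for *Bbc3*, -1.93 for *Pmaip1*, -4.26 for *Trp53inp1*, -3.63 for *Sesn2*, -5.59 for *Btg2*, -1.01 for *Bax*, -5.09 for *Perp*, 3.86 for *Aldh4a1*, -0.32 for *Gpx1*, -5.22 for *Rev3l*, -15.37 for *Usp7*, -2.06 for *Npm1*, -1.29 for *Cbx7*, -14.29 for *Rpl23*, 2.67 for *Cdkn2b*, 1.17 for *Cdkn2c*, 4.12 for *Chac1*, -9.18 for *Atf4*, -6.48 for *Sfn* and -0.53 for *Phlda3*.

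Where a sample is left out, the lone sample is assumed to vary like the other genotype. *Cdkn2a* could not be fitted with the raised filter, and its 0 counts in both WT samples limit its fold to a lower bound. Apart from the deposited order and the smaller number of samples, the cause of these shifts was not tested.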
